A study of Mus musculus with 30 samples.

Results

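Day-5 embryoid bodies (EB), the differentiating aggregates that mouse R1 embryonic stem cells (ESC) form when grown without LIF, were compared between gradient pool 4 and gradient pool 3. LIF is the cytokine that keeps ESC undifferentiated. The EB cells of both pools carry no genetic change that the labels name, received 150 ug/ml cycloheximide for 15 min before harvest, and gave 3 arrays per pool, numbered 1 to 3. The 6 arrays were chosen by their titles from the 30 of the series, and pool 3 and pool 4 arrays with the same number were taken as a pair. All 45037 probe sets that are not controls were normalized together, 27022 of them were tested, and these covered 13297 genes. The ESC arrays of the same pools, from cultures kept in LIF, were used in 1 comparison.

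Cycloheximide freezes ribosomes on mRNAs, and a sucrose gradient then separates mRNAs by how much they carry. An mRNA with many ribosomes sediments farther than one with few, and a long coding sequence has room for more ribosomes than a short one. The labels do not say from which end of the gradient the pools were numbered, so the pools are named by number only. Each array was made from 2.5 ug of RNA, and the yield of the pools was not used. A difference between pools therefore says how a gene's share of the array signal differed, not how much mRNA a pool held. A day-5 EB holds several cell types, so a gene's level here cannot separate fewer expressing cells from less RNA per cell.

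The arrays of the pools differed in total signal, and this sets how the values below are read. Mean linear signal was 577.8, 262.8 and 340.8 in pool 3 and 241.9, 209.6 and 243.7 in pool 4, for replicates 1 to 3. It was lower in pool 4 in all 3 pairs, with a ratio of means of 0.589 (exact sign-flip permutation test over the 3 pairs, two-sided, p = 0.25, the smallest that 3 pairs allow). The share of probe sets at the lowest value of an array was 24.6% ± 2.48 in pool 3 and 31.2% ± 4.29 in pool 4 (SD, n = 3). The hybridisation controls, RNAs added after labelling, were lower in pool 4 as well, 10.97 ± 0.52 against 11.63 ± 0.46 (log2, SD, n = 3). The part these array-wide differences play in single genes was not tested. Differences are therefore given after quantile normalization, which gives all 6 arrays one distribution, and are relative to all genes. The deposited scale here means log2 of the deposited linear signal plus 32, with no further scaling between arrays, so its differences are not those of the submitters' log2 values. On it the median tested gene was -0.38 (log2), and after centring each array of these values on its median it was -0.075. Where a companion scale turned the sign of a list's median, its value is printed. Calls are those of the quantile-normalized values unless another scale is named.

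Markers of undifferentiated cells were measurable in both pools. All 7 of 7 pluripotency markers lay above the floor on every array, with summed linear signal of 43330 to 94830 in pool 3 and 32000 to 38620 in pool 4. Of 6 endoderm markers 5 were never at the floor, and Afp, a product of visceral endoderm, was at the floor on 3 of 6 arrays. The endoderm sums were low, 160.5 to 471.3 in pool 3 and 184.2 to 211.6 in pool 4. Of 5 primed epiblast and streak markers with a probe set 4 were never at the floor, with sums of 3709 to 12050 and 2721 to 4380. Of 3 neural markers 2 were never at it, with sums of 103.1 to 195.2 and 65.84 to 94.5. Of 10 markers of fibroblasts, which serve as feeders, 2 were never at the floor and Fap was at it on every array. Their sums were 251.5 to 533.8 in pool 3 and 226.8 to 240.2 in pool 4. Of 10 blood and endothelial markers 5 were never at the floor, with sums of 317.9 to 849.8 and 271.7 to 352.6. No fibroblast or blood marker was called among the 4 and 5 tested.

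In limma's test with the pair as a block, 3445 probe sets were higher and 3469 lower in pool 4 at a Benjamini-Hochberg adjusted p under 0.05, and such probe sets are termed called. These were 12.7% and 12.8% of all tested. Counted by gene, each represented by its brightest tested probe set, 2052 were called higher and 2083 lower, or 15.4% and 15.7%. The share called rose with signal level. Of the dimmest 3325 genes 2.44% were called higher and 2.50% lower, and of the brightest 3324 genes 29.12% and 29.15%. The shares of all genes set beside lists below are not matched for level. All 4135 called genes differed the same way in all 3 pairs, and in 4007 of them the 3 values of one pool did not overlap the 3 of the other. These counts are given for called genes only, and the calls were made on the same arrays. They describe the called genes and are not a separate check of the calls. The same holds where pools are said not to overlap for single called genes below. By size, 272 called genes were higher and 230 lower by over 1 on the log2 scale. On the deposited scale the same fit called 47 probe sets higher and 4978 lower (0.174% and 18.4%), and limma gave every probe set the same SE there. With median centring 2057 were higher and 4803 lower, so the share of higher calls was 49.8% after quantile normalization, 29.99% after centring and 0.935% as deposited. After centring, limma's adjusted p for the named genes followed the size of the difference: Pold1 and Tfcp2l1, both at 0.9964, shared 3.093e-05. Calls on the companion scales therefore mark the size of a difference and do not weigh a gene's own spread. All 2083 genes called lower kept that sign on both companion scales. Of the 2052 called higher, 2045 kept it after centring and 1874 on the deposited scale.

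The nuclear genes of mitochondria held the lists with the lowest medians. Mitochondrial ribosomal proteins build the ribosome that translates mitochondrial DNA's few mRNAs, and respiratory chain subunits build the complexes that pass electrons to oxygen and make ATP. Of 76 ribosomal protein genes tested 0 were called higher and 58 lower, with a median of -0.85 (-0.85, -0.79 and -0.89 in the 3 pairs), against -0.014 over all genes. Of 71 respiratory chain genes 4 were higher and 56 lower, with a median of -0.82. Both medians were lower still when centred (-1.07 and -1.12) and as deposited (-1.38 and -1.42).

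Atp5e, a small subunit of the ATP synthase, read 9.11, 10.27 and 10.24 in pool 3 and 8.001, 8.64 and 8.58 in pool 4. Replicate 1 was the lowest in both pools, and no pool 4 value reached a pool 3 value. The difference was -1.47 ± 0.16 (log2, SE, n = 3 pairs, adjusted p = 0.00713). Ndufa8 and Ndufb2 are accessory subunits of complex I. Ndufa8 read 10.80, 10.78 and 10.85 in pool 3 and 9.29, 9.45 and 9.69 in pool 4, and fell by 1.33 ± 0.14. Ndufb2 read 10.19, 10.51 and 10.51 in pool 3 and 8.96, 9.24 and 9.02 in pool 4, and fell by 1.33 ± 0.13, although its 3 tested probe sets did not all have the same sign. The pools did not overlap for either gene. Mrps34, of the small mitochondrial ribosomal subunit, read 10.37, 10.44 and 10.34 in pool 3 and 8.97, 9.25 and 8.86 in pool 4 and differed by -1.36 ± 0.13. Mrpl13, of the large subunit, read 10.64, 10.79 and 11.20 in pool 3 and 9.37, 9.78 and 9.47 in pool 4 and differed by -1.34 ± 0.17. Adjusted p was 0.00713 for all of these 4 genes. Uqcc2, an assembly factor of complex III and one of the 12 lowest genes, read 9.89, 10.43 and 10.40 in pool 3 and 8.79, 8.98 and 8.95 in pool 4, a difference of -1.33 ± 0.14.

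The 4 respiratory chain genes called higher were chosen for naming after their values were seen. Atp5a1 and Atp5b encode the alpha and beta subunits of the ATP synthase head, Uqcrc1 a core protein of complex III, and Sdha the flavoprotein of complex II. Atp5b read 12.77, 12.80 and 12.74 in pool 3 and 13.43, 13.31 and 13.47 in pool 4, with all pool 4 values above all pool 3 values, a difference of 0.64 ± 0.13 (adjusted p = 0.0154). Sdha, Atp5a1 and Uqcrc1 differed by 0.44 ± 0.13, 0.45 ± 0.13 and 0.52 ± 0.13. These 4 positive signs belong to the quantile-normalized values. After median centring the 4 differences were 0.24, 0.051, 0.16 and 0.084, none past the threshold, and on the deposited scale all 4 were below 0. Other subunits of the same complexes, Sdhc and Sdhd of complex II among them (-0.99 and -0.97), were called lower.

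**Figure D1:**
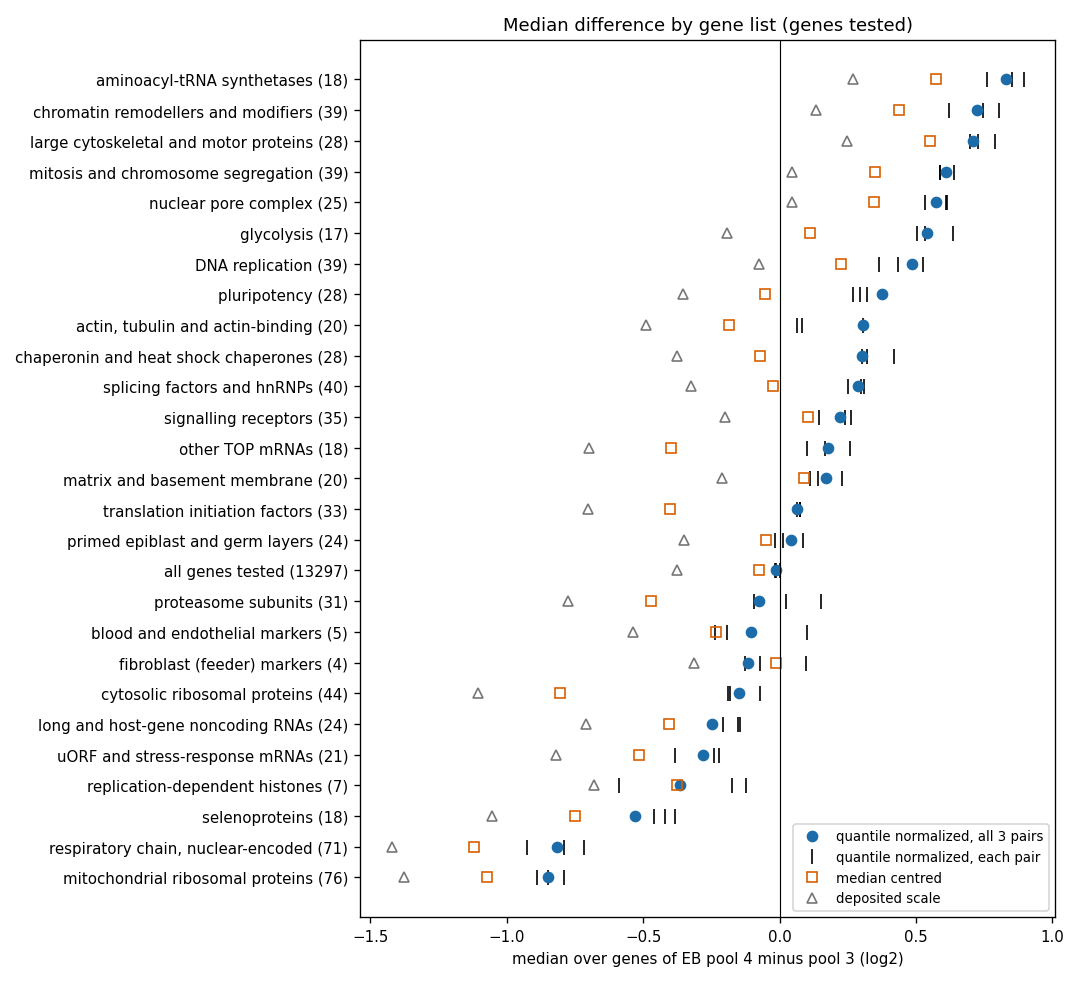
Median over the tested genes of each list of the log2 difference EB pool 4 minus pool 3. Filled circles are quantile-normalized values, ticks each of the 3 pairs, squares median-centred values and triangles values on the deposited scale. The mitochondrial ribosomal proteins (-0.85) and the aminoacyl-tRNA synthetases (0.83) lie at the ends of the quantile-normalized order, and every list lies farther left on the deposited scale.

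Selenoproteins, which carry the amino acid selenocysteine at a recoded stop codon, were also low in pool 4. Of 18 tested 0 were called higher and 8 lower, with a median of -0.53. Msrb1, a methionine sulfoxide reductase, read 8.22, 8.24 and 8.69 in pool 3 and 7.23, 7.14 and 7.35 in pool 4 and differed by -1.14 ± 0.14. Selenoh, a nuclear redox protein, read 11.41, 11.87 and 11.79 in pool 3 and 10.36, 10.78 and 10.77 in pool 4 and differed by -1.05 ± 0.13, with adjusted p = 0.00713 for both. No value of one pool reached the other in either gene. The glutathione peroxidases Gpx1 and Gpx4, named after their values were seen, differed by -0.95 ± 0.12 and -0.46 ± 0.13 (adjusted p = 0.00717 and 0.0416).

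The machinery of translation differed by component. Aminoacyl-tRNA synthetases, the enzymes that load amino acids onto tRNAs, had 14 of 18 genes called higher and 0 lower, with a median of 0.83 that stayed above 0 when centred (0.57) and as deposited (0.27). Aars, which loads alanine, read 10.03, 9.86 and 9.79 in pool 3 and 11.45, 11.45 and 11.01 in pool 4. Every pool 4 value exceeded every pool 3 value by more than the spread within a pool, and the difference was 1.41 ± 0.14 (adjusted p = 0.00713). Wars, which loads tryptophan, read 7.97, 8.09 and 8.24 in pool 3 and 9.38, 9.43 and 9.61 in pool 4 and differed by 1.37 ± 0.13 with the same adjusted p. The other 12 called synthetases ranged from 0.57 in Kars to 1.12 in Gars, and Qars, Vars, Yars and Sars were not called.

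Translation initiation factors went both ways, 10 higher and 9 lower of 33, with a median of 0.064 that was -0.40 when centred and -0.70 as deposited. The counts were 6 higher and 13 lower when centred, and 0 and 14 as deposited. The subunits of eIF3, the large factor that holds the small ribosomal subunit ready for mRNA, were themselves divided. Eif3c read 11.34, 11.35 and 11.18 in pool 3 and 12.70, 12.37 and 12.30 in pool 4, and differed by 1.17 ± 0.14 (adjusted p = 0.00713). Eif3a, Eif3b, Eif3d and Eif3e were called higher (0.77, 0.85, 0.97 and 0.77), whereas Eif3f and Eif3k were called lower (-0.48 and -0.61). Eif1b, which takes part in start codon choice, read 9.34, 9.31 and 9.52 in pool 3 and 8.19, 8.56 and 8.35 in pool 4 and differed by -1.03 ± 0.15 (adjusted p = 0.0072). Eif4e, the cap-binding protein, and Eif1ax were also lower, by -0.82 ± 0.13 and -0.88 ± 0.13.

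Cytosolic ribosomal protein mRNAs and other TOP mRNAs begin with a C followed by a tract of pyrimidines, through which their translation is known to follow nutrient signals. Of 80 ribosomal protein genes listed, 45 had a probe set of their own and 44 were tested. Of these 0 were called higher and 7 lower, so 15.9% were called lower against 15.7% of all genes, and their median was -0.15. After median centring 39 were called lower with a median of -0.80. The size of this list's shift thus rests on the scale. Of these genes 38 lay among the brightest 3324 of all 13297. The median of those 3324 was -0.0015 after quantile normalization and -0.28 after centring, while the dimmest 3325 stood at -0.018 and 0.028. Of the brightest 3324, 29.12% were called higher and 29.15% lower, both above the shares of this list. Rpl14, of the large subunit, read 9.16, 9.23 and 9.48 in pool 3 and 8.19, 8.56 and 8.57 in pool 4, and Rps6, of the small subunit and a substrate of S6 kinase, read 8.15, 8.41 and 8.34 in pool 3 and 7.34, 7.66 and 7.36 in pool 4. Both fell without overlap of the pools, by 0.85 ± 0.13 and 0.84 ± 0.13 (adjusted p = 0.00812 and 0.00771). They were named for the largest differences of the list, and both lay outside the brightest 3324 genes, unlike most of its members.

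Of 18 other TOP mRNAs 5 were called higher and 2 lower, with a median of 0.18. This balance rests on the scale, since 0 were called higher and 6 lower both when centred and as deposited, with medians of -0.40 and -0.70. Btf3, which binds chains leaving the ribosome, read 12.79, 12.91 and 12.89 in pool 3 and 11.69, 12.20 and 12.08 in pool 4 and differed by -0.87 ± 0.14 (adjusted p = 0.00826). Eif3e read 12.36, 12.21 and 12.27 in pool 3 and 13.31, 12.93 and 12.92 in pool 4 and differed by 0.77 ± 0.13 (adjusted p = 0.00978), but by 0.27 after centring (adjusted p = 0.382) and -0.034 as deposited. To see whether the called members begin with the tract, 20 bases around the RefSeq start of each, 5 before it and 15 from it on, were read on the gene's own strand (GRCm38.p6). A run of at least 7 pyrimidines (C or T) that begins with C is in capitals. The members called lower come first.
Fau (chr19:6057942-6057961, plus strand): caCTTCTTCCTCTTTCTTga
Rpl14 (chr9:120571512-120571531, plus strand): tCTCTCTTCTCgctgagcgc
Rps15 (chr10:80292426-80292445, plus strand): ctcgcgataactgcgcaagc
Rps19 (chr7:24884587-24884606, plus strand): cgcgagactcgacgcccgac
Rps25 (chr9:44407709-44407728, plus strand): atcttagcgaggctgctgtg
Rps27l (chr9:66946081-66946100, plus strand): ccgccgcctctatcccggaa
Rps6 (chr4:86857353-86857372, minus strand): cgggCCTCTTTTTCgtgacg
Btf3 (chr13:98316992-98317011, minus strand): aggaagtggcgtcgcgttac
Eif3f (chr7:108934410-108934429, plus strand): gCTCTCTCTCTTTCTCggca
The members called higher follow, without Cct4 and Eif3e, which had no entry.
Eif2s3x (chrX:94212637-94212656, minus strand): ttttCCTTTTCTCTCCgagc
Eif4b (chr15:102073768-102073787, plus strand): tcggacgccgcgccaccccc
Nap1l1 (chr10:111473222-111473241, plus strand): cgggtCTTTTTTagcgccat
The tract was present in Fau, Rpl14, Rps6 and Eif3f, which were called lower, and in Eif2s3x and Nap1l1, which were called higher after quantile normalization only (0.11 and 0.021 when centred, not called, and -0.19 and -0.28 as deposited). It was absent from this window in Rps15, Rps19, Rps25, Rps27l and Btf3, which were lower, and in Eif4b, which was called higher on the quantile-normalized scale only. Over the 10724 tested genes with an entry 8.28% held it, against 7.70% of those called higher, 6.79% of those called lower, and 7.93% of all 27025 starts in the table. Among ribosomal protein genes 16 of 39 held it, with a median difference of -0.17 for those with it and -0.13 for those without. Among the other TOP mRNAs 5 of 12 held it, and the medians were 0.40 with it and -0.06 without. A RefSeq start can differ from the start used in these cells.

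**Figure D2:**
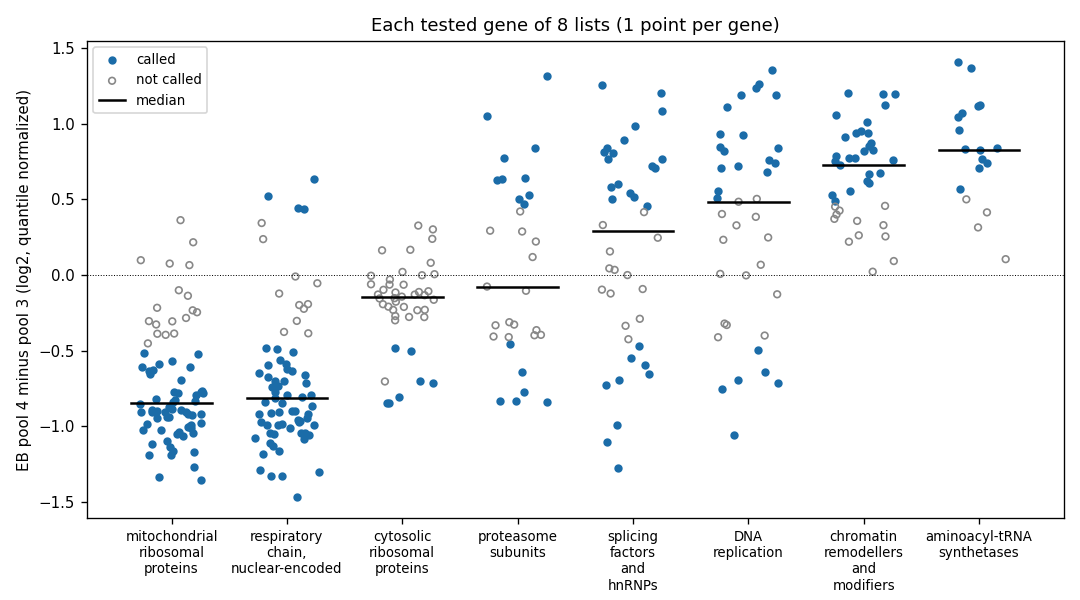
Log2 difference EB pool 4 minus pool 3 (quantile normalized) for each tested gene of 8 lists, with called genes filled, genes not called open and the list's median as a bar. Points of the mitochondrial lists lie mostly between -1.5 and 0, those of the chromatin and synthetase lists lie above 0, and proteasome, splicing and replication genes form groups on both sides.

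After quantile normalization several complexes had parts called in opposite directions. The proteasome had 10 of 31 genes higher and 6 lower, with a median of -0.077 that was -0.47 when centred and -0.77 as deposited. When centred 2 were higher and 14 lower, and as deposited 0 and 14. All 10 genes called higher encode the regulatory cap, which binds and unfolds ubiquitin-marked proteins. The 6 called lower were Psmb2, Psmb3, Psmb4, Psmb6 and Psma7 of the proteolytic core and Psmd8 of the cap. Psmd1 read 11.50, 10.997 and 11.02 in pool 3 and 12.80, 12.21 and 12.44 in pool 4 and Psmd2 10.83, 11.04 and 11.06 in pool 3 and 11.93, 11.97 and 12.18 in pool 4, with no overlap of the pools. These scaffold subunits of the cap rose by 1.31 ± 0.13 and 1.05 ± 0.13 (adjusted p = 0.00713 for both), and were the 2 still called higher when centred (0.91 and 0.69). Psmb2 read 10.91, 11.17 and 11.12 in pool 3 and 10.10, 10.23 and 10.35 in pool 4, a difference of -0.84 ± 0.13, and Psmd8 11.004, 11.03 and 10.94 in pool 3 and 10.03, 10.16 and 10.27 in pool 4, a difference of -0.84 ± 0.13.

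Chaperones showed 13 higher and 7 lower of 28, but 3 and 10 when centred and 0 and 10 as deposited. All 8 listed subunits of the CCT chaperonin, the ring that folds actin and tubulin, were called higher, from 0.56 in Cct4 to 1.18 in Cct3. When centred only Cct3 and Cct8 of these were called (0.63 and 0.72), and Cct4 stood at -0.059. Cct3 read 12.35, 12.24 and 12.34 in pool 3 and 13.70, 13.36 and 13.40 in pool 4 and rose by 1.18 ± 0.13, although its 6 tested probe sets did not all have the same sign. Stip1, which links heat shock proteins, read 10.32, 10.47 and 10.40 in pool 3 and 11.79, 11.56 and 11.78 in pool 4 and rose by 1.31 ± 0.14 (adjusted p = 0.00713 for both). Prefoldin, a smaller complex that hands chains to CCT, was lower in all 5 subunits tested, from -1.13 in Pfdn5 to -0.76 in Vbp1, and all 5 were also called lower when centred. The list's median was 0.30, -0.072 when centred and -0.37 as deposited.

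Splicing factors had 18 of 40 higher and 9 lower, with a median of 0.29 that was -0.023 when centred and -0.33 as deposited. The counts turned to 6 higher and 12 lower when centred, and 0 and 13 as deposited. Sf3b2, a subunit of the U2 particle, read 9.92, 10.08 and 10.04 in pool 3 and 11.27, 11.35 and 11.20 in pool 4 and rose by 1.26 ± 0.13. Snrpd3, one of the Sm proteins that ring the spliceosomal RNAs, read 11.75, 11.69 and 11.23 in pool 3 and 10.63, 9.97 and 10.24 in pool 4 and fell by 1.28 ± 0.18 (adjusted p = 0.00713 and 0.00717). Both genes kept the pools apart. Snrpb, Snrpe, Snrpf and Snrpg were also called lower, whereas Sf3b1, Sf3b3, Prpf8 and Snrnp200 were called higher.

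DNA replication genes numbered 18 higher and 6 lower of 39, with a median of 0.48 that was 0.23 when centred and -0.077 as deposited. When centred 10 were higher and 10 lower, and as deposited 0 and 10. Mcm2, of the replicative helicase, read 10.27, 10.22 and 10.42 in pool 3 and 11.70, 11.59 and 11.69 in pool 4 and Pold1, the catalytic subunit of polymerase delta, 9.47, 9.44 and 9.34 in pool 3 and 10.78, 10.64 and 10.62 in pool 4. They rose by 1.35 ± 0.13 and 1.26 ± 0.13 (adjusted p = 0.00713 for both), with no overlap of the pools. All 6 helicase subunits Mcm2 to Mcm7 were called higher (Mcm2, Mcm3, Mcm5 and Mcm6 also when centred), and the 3 GINS subunits Gins1, Gins2 and Gins4, which bind that helicase, were called lower. Rpa1, the large subunit of the single-strand binding protein RPA, differed by 0.93 ± 0.13, and Rpa3, its smallest, by -1.06 ± 0.15. Mitosis genes showed 23 higher and 4 lower of 39, and 10 and 5 when centred. Bub1b, a checkpoint kinase-like protein, read 9.59, 9.91 and 9.99 in pool 3 and 11.07, 11.08 and 11.10 in pool 4 and Cdc20, an activator of the anaphase-promoting complex, 12.39, 12.64 and 12.63 in pool 3 and 13.78, 13.67 and 13.58 in pool 4. Each pool 4 value exceeded each pool 3 value, and the differences were 1.25 ± 0.14 and 1.12 ± 0.15 (adjusted p = 0.00713 for both). Birc5, Cenpa, Ube2c and Pttg1 were the 4 called lower, from -0.88 to -0.56, and another probe set of Pttg1 was called higher.

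Chromatin regulators, large cytoskeletal proteins and the nuclear pore had many members called higher and none lower. These were 27 of 39, 22 of 28 and 14 of 25 genes. Their medians were 0.72, 0.71 and 0.57, and they remained above 0 when centred and as deposited. Dnmt3b, a de novo DNA methyltransferase, read 10.57, 10.81 and 10.71 in pool 3 and 11.68, 12.03 and 11.99 in pool 4, and Kdm1a, a histone demethylase, 11.19, 11.23 and 11.23 in pool 3 and 12.39, 12.45 and 12.39 in pool 4. They rose by 1.20 ± 0.13 and 1.20 ± 0.13, with no overlap of the pools. Map4, which binds microtubules, read 8.87, 8.77 and 8.84 in pool 3 and 10.07, 10.14 and 9.86 in pool 4 and Kif5b, a kinesin motor, 9.80, 9.33 and 9.32 in pool 3 and 11.24, 10.11 and 10.53 in pool 4. Their differences were 1.20 ± 0.14 and 1.14 ± 0.16, although the tested probe sets of Map4 did not all have the same sign. Nup93 and Nup188, which neighbour each other in the inner ring of the pore, read 10.08, 10.09 and 10.08 in pool 3 and 11.27, 11.23 and 11.13 in pool 4 and 7.96, 7.86 and 7.94 in pool 3 and 9.04, 8.85 and 8.88 in pool 4. They rose by 1.12 ± 0.13 and 1.0041 ± 0.13, and adjusted p was between 0.00713 and 0.00721 for these 6 genes.

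Glycolysis had 11 of 17 genes higher and 0 lower. Pfkl, the liver form of phosphofructokinase, which commits sugar to glycolysis, read 10.29, 10.46 and 10.42 in pool 3 and 12.15, 12.09 and 12.18 in pool 4, a difference of 1.75 ± 0.13 (adjusted p = 0.00713). Pfkp, its platelet form, read 10.58, 10.72 and 10.65 in pool 3 and 11.92, 11.79 and 11.75 in pool 4 and rose by 1.17 ± 0.13. For both genes the pools were apart, but the tested probe sets did not all have the same sign. The list's median was 0.54, 0.11 when centred and -0.19 as deposited.

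**Figure D3:**
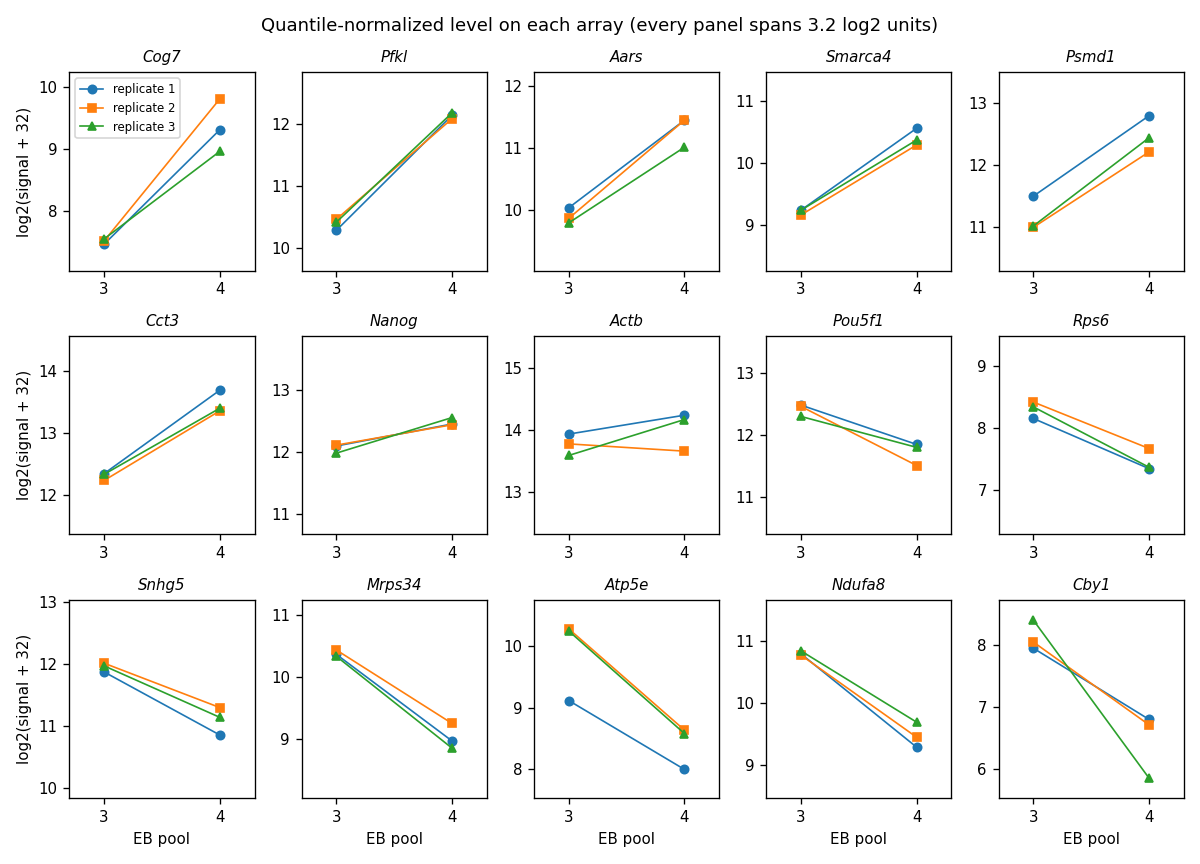
Quantile-normalized log2(signal + 32) of 15 genes on each of the 6 arrays, with lines joining pool 3 and pool 4 of a replicate number. Pfkl, Aars and Smarca4 rise and Mrps34, Ndufa8 and Snhg5 fall in all 3 pairs with no overlap of the pools, whereas the values of Actb cross.

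Among the remaining genes with the largest differences, Cog7, a subunit of a Golgi tethering complex, read 7.47, 7.52 and 7.55 in pool 3 and 9.32, 9.82 and 8.97 in pool 4. Its pool 3 values were close together and its pool 4 values spread, and the difference of 1.85 ± 0.19 was the highest of all called genes. Ipo4, a nuclear import receptor, read 8.92, 9.002 and 8.91 in pool 3 and 10.86, 10.48 and 10.72 in pool 4, and Uhrf1bp1, a lipid transfer protein, 7.46, 7.28 and 6.95 in pool 3 and 9.07, 8.82 and 8.78 in pool 4. Exoc4, of the exocyst, Wdr6, Cpsf3, the endonuclease that cuts pre-mRNA 3' ends, and Tcof1, a nucleolar protein, rose by 1.51 ± 0.14, 1.5003 ± 0.13, 1.48 ± 0.15 and 1.47 ± 0.14, although the 4 tested probe sets of Exoc4 did not all have the same sign. Map3k4, a stress kinase, Lmnb2, a nuclear lamin, Prmt5, an arginine methyltransferase, and Baz2a, of a nucleolar chromatin complex, complete the 12 highest at 1.46, 1.46, 1.44 and 1.41. Adjusted p was 0.00713 for all of them. At the other end Cby1, an inhibitor of beta-catenin, read 7.95, 8.05 and 8.40 in pool 3 and 6.80, 6.71 and 5.85 in pool 4. Replicate 3 had both its highest pool 3 and its lowest pool 4 value, and the difference was -1.68 ± 0.27 (adjusted p = 0.00826). Otub1, a deubiquitinase, Plaat3, a phospholipase, Dnajc17, Crip1 and Anapc11, the RING subunit of the anaphase-promoting complex, fell by 1.45, 1.40, 1.40, 1.38 and 1.34 (SE 0.13 to 0.26).

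Developmental regulators went both ways. Of 28 pluripotency genes 11 were called higher and 2 lower, with a median of 0.38 that was -0.052 when centred and -0.36 as deposited. The balance of calls turned with the scale, to 5 higher and 8 lower when centred and 0 and 8 as deposited. Pou5f1, the central factor of the ESC state, read 12.49, 12.47 and 12.30 in pool 3 and 11.85, 11.51 and 11.81 in pool 4 and fell by 0.70 ± 0.15 (adjusted p = 0.0163). The other core factors did not pass the test: Nanog read 12.09, 12.10 and 11.97 in pool 3 and 12.45, 12.43 and 12.55 in pool 4, a difference of 0.42 ± 0.13 (adjusted p = 0.0594), and Sox2 12.86, 12.68 and 12.90 in pool 3 and 13.22, 13.31 and 13.18 in pool 4, a difference of 0.42 ± 0.14 (adjusted p = 0.066). Neither gene's pools overlapped, but Sox2 was -0.12 when centred and both were below 0 as deposited. Tfcp2l1, a naive-state factor, read 8.79, 8.57 and 8.73 in pool 3 and 10.04, 9.79 and 9.85 in pool 4, and Sall4, a zinc finger factor, 11.28, 11.02 and 11.11 in pool 3 and 12.36, 12.18 and 12.39 in pool 4. They rose by 1.19 ± 0.13 and 1.18 ± 0.13 (adjusted p = 0.00713 for both). Of 24 genes of the primed epiblast and germ layers 3 were higher and 1 lower (12.5% and 4.17%, neither above the share of all genes). Their median was 0.042, -0.049 when centred and -0.35 as deposited. Fgf5, a marker of primed epiblast, read 8.03, 8.24 and 8.31 in pool 3 and 6.91, 7.77 and 7.18 in pool 4 and fell by 0.91 ± 0.17 (adjusted p = 0.0125).

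Of 35 signalling receptors 5 were higher and 1 lower (14.3% and 2.86%, against 15.4% and 15.7% of all genes), so the share called higher was near that of all genes. The median of 0.22 was -0.20 as deposited, and when centred 1 was higher and 1 lower. Igf1r, the IGF receptor, read 7.22, 6.71 and 6.60 in pool 3 and 7.92, 7.74 and 7.45 in pool 4 and Fzd7, a Wnt receptor, 8.91, 8.84 and 9.01 in pool 3 and 9.51, 9.62 and 9.68 in pool 4. They rose by 0.86 ± 0.14 and 0.69 ± 0.13, though the tested probe sets of Igf1r did not all have the same sign and Fzd7 missed the threshold when centred (0.48, adjusted p = 0.0763). Of 20 matrix genes 2 were higher and 3 lower, no more than the share over all genes, with a median of 0.17 that was -0.21 as deposited. Sparc, a matrix glycoprotein, read 9.22, 9.06 and 9.18 in pool 3 and 10.46, 9.88 and 10.06 in pool 4 and Ccn1, a matricellular signal, 9.01, 8.83 and 9.02 in pool 3 and 8.13, 8.25 and 8.44 in pool 4, with differences of 0.98 ± 0.14 and -0.68 ± 0.14 (adjusted p = 0.00745 and 0.0146).

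The mRNAs known for upstream open reading frames or stress control showed 3 higher and 7 lower of 21, a median of -0.28. These were 14.3% and 33.3%, against 15.4% and 15.7% of all genes. Sat1, which degrades polyamines, read 9.32, 9.82 and 9.87 in pool 3 and 8.22, 8.997 and 8.58 in pool 4 and fell by 1.07 ± 0.15 (adjusted p = 0.00717). Ibtk, an inhibitor of a tyrosine kinase, read 7.49, 7.38 and 7.54 in pool 3 and 8.60, 8.47 and 8.48 in pool 4 and rose by 1.05 ± 0.13. The transcription factors Atf4 and Ddit3, named after their values were seen, differed by -0.60 ± 0.14 and -0.67 ± 0.14, although the 2 tested probe sets of Ddit3 differed in sign. Of 24 long noncoding RNAs and snoRNA host genes 0 were called higher and 5 lower (20.8%, against 15.7% of all genes), with a median of -0.25. Snhg5 read 11.87, 12.01 and 11.97 in pool 3 and 10.85, 11.29 and 11.13 in pool 4 and fell by 0.85 ± 0.13, and Snhg8 read 9.18, 9.68 and 9.83 in pool 3 and 8.46, 9.22 and 8.73 in pool 4, where the pools overlapped, and fell by 0.76 ± 0.16 (adjusted p = 0.00795 and 0.0173). Of 7 histone genes tested 1 was lower (14.3%, near the share of all genes). It was H1f2, a linker histone, which read 7.87, 7.77 and 7.73 in pool 3 and 6.83, 7.08 and 7.14 in pool 4 and fell by 0.77 ± 0.15 (adjusted p = 0.0123).

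In the list of actin, tubulin and actin-binding genes 5 of 20 were higher and 5 lower, with a median of 0.30 that was -0.19 when centred and -0.49 as deposited. When centred 3 were higher and 7 lower, and as deposited 0 and 7. All 5 higher genes were beta-tubulins. Tubb2a read 8.11, 8.31 and 7.91 in pool 3 and 9.48, 9.10 and 9.35 in pool 4 and Tubb4b 12.16, 12.05 and 12.14 in pool 3 and 13.51, 13.17 and 13.26 in pool 4, with differences of 1.20 ± 0.17 and 1.20 ± 0.13, but another of the 3 tested probe sets of Tubb4b was called lower. Pfn1, Tmsb4x, Arpc5, Stmn1 and Cfl1, small proteins that bind actin or tubulin, were the 5 called lower, from -1.19 to -0.56. Actb, often used as a reference gene, read 13.93, 13.77 and 13.59 in pool 3 and 14.24, 13.66 and 14.17 in pool 4, with overlapping pools and a difference of 0.26 ± 0.17 (adjusted p = 0.309) that was -0.32 when centred. Gapdh had no probe set of its own symbol alone and was not tested.

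Across all 4 EB pools, most genes of the raised lists had their highest level in pool 4, and genes of the lowered lists had it in pools 1 to 3. Pool 4 held the highest mean for 17 of 18 synthetases, 34 of 39 chromatin regulators, 30 of 39 mitosis genes and 26 of 39 replication genes, against 4715 of 13297 genes overall. It held the highest mean for 4 of 76 mitochondrial ribosomal proteins, where 24 peaked in pool 1, 29 in pool 2 and 19 in pool 3. For the respiratory chain the counts were 21, 28, 16 and 6 of 71 in pools 1 to 4. Cytosolic ribosomal proteins peaked in pool 1 in 21 of 44 genes, and all 31 proteasome genes peaked in pool 3 (16) or pool 4 (15). When the replicate 3 array of pool 2 was left out, a choice made after the data were seen, 4705 genes peaked in pool 4. The respiratory chain counts were then 25, 24, 16 and 6 in pools 1 to 4. These counts share the pool 3 and pool 4 arrays with the values above. A gene lower in pool 4 than in pool 3 cannot peak in pool 4, and a higher one cannot peak in pool 3. The counts for pools 3 and 4 thus follow largely from the contrast itself and are not separate support for it.

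**Figure D4:**
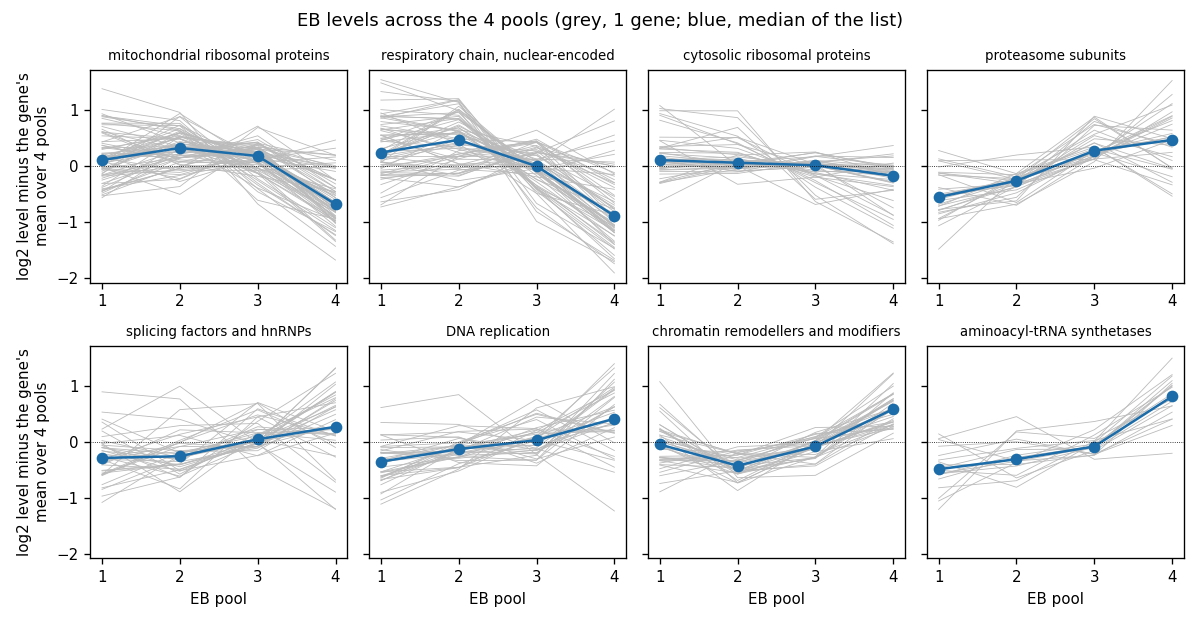
Quantile-normalized EB level in each pool minus the gene's mean over the 4 pools (log2), for 8 lists, with 1 grey line per gene and the median in blue. The mitochondrial lists drop between pools 3 and 4, and the synthetases and chromatin regulators climb there. All 31 proteasome genes are highest in pool 3 (16) or pool 4 (15).

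Genes also differed by the length of genome they cover, used in place of protein length, for which no table was at hand. The median difference was -0.22 for 1738 genes spanning under 5 kb, -0.13 for 4394 of 5 to 20 kb, 0.068 for 4167 of 20 to 60 kb and 0.20 for 2941 of 60 kb and over. In the shortest class 2.42% were called higher and 30.03% lower, and in the longest 26.1% and 5.17%. Across 13240 genes the difference correlated with log10 span at r = 0.339 (Spearman's rho 0.352), a description only, since the genes share the same 6 arrays and genomic span includes introns. From the shortest to the longest class the medians were -0.30, -0.21, -0.017 and 0.13 when centred and -0.60, -0.51, -0.32 and -0.18 as deposited, so the sign of the longer classes rests on the scale.

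The same contrast was set beside ESC to ask whether it differed between the states. After joint normalization of the 12 arrays, no gene of 13346 was called in ESC pool 4 against pool 3 (0% higher and 0% lower by limma), while 4157 probe sets had an unadjusted p under 0.05. The per-culture differences correlated across genes at 0.23 to 0.41 between ESC cultures and at 0.76 to 0.78 between EB cultures. The test of the difference between the states called 383 genes higher in EB (2.87%) and 331 lower (2.48%), with adjusted p values that began at 0.0356. None of the 9 alternative settings of this test called any probe set, so these calls rest on the setting used. In list medians, the synthetases stood at 0.83 in EB and 0.18 in ESC, and the respiratory chain at -0.83 and -0.14. Of 71 respiratory chain genes 28 were called lower in EB than in ESC and 0 higher. Mitochondrial ribosomal proteins stood at -0.86 and -0.36, with 13 of 76 called lower and 1 higher. Signalling receptors had 0 of 35 called either way.

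**Figure D5:**
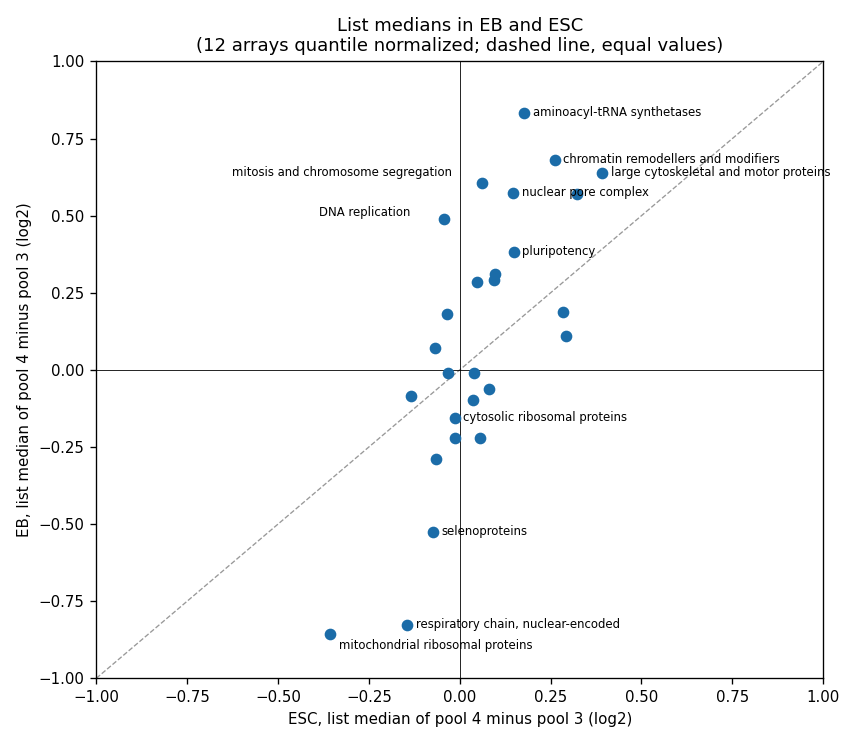
Median log2 difference pool 4 minus pool 3 of each gene list in EB (vertical) against ESC (horizontal), 12 arrays quantile normalized together. The respiratory chain lies at -0.83 in EB and -0.14 in ESC, and most lists lie farther from 0 in EB.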

How the data were processed

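The series matrix held 1 value per probe set and array of an Affymetrix mouse expression array. The authors deposited log2 signals made with MAS5 and affy, per the submitters' processing notes, which name no versions or settings. The deposited values share 24 spike-in controls at like levels on the 6 arrays (array means 9.65 to 9.73), and each pool array has a floor set by its replicate number. Here 32 was added to each signal on its linear scale before log2 was taken again, and the 6 arrays were quantile normalized. The values named as deposited and as median centred carry the same addition, without quantile normalization. The dimmest 40% of probe sets by mean were left untested. The test of pool 4 against pool 3 was that of limma (version 3.58.1, R 4.3.3; lmFit and eBayes, two-sided, replicate number as a block, Benjamini-Hochberg over all tested probe sets, threshold 0.05). Pools with the same biological replicate number were paired from the labels, taken as fractions of 1 culture's gradient; deviations from group means correlated at 0.25, 0.10 and 0.042. Nothing says how far cultures were independent, so p-values measure the spread between these samples. EB and ESC were compared on per-culture differences without a block. No array gives a depth, so 3 arrays per group limit the precision.

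Of 45037 probe sets 34945 had 1 symbol, 932 several and 9160 none, and 34741 matched RefSeq by Entrez identifier; only probe sets with 1 symbol were named. A gene was represented by its tested probe set with the highest mean. In 31 genes different probe sets were called in opposite directions. The text names the 12 highest and 12 lowest called genes with the same sign in 3 pairs and after median centring, up to 2 called members of each of 26 lists with the largest difference, 5 reference genes and the 4 highest and 4 lowest for the difference between EB and ESC; other members were named after their values were seen. Members, lists and this rule were chosen with earlier results of these data known. The code was tested on simulated data.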

Additional observations from a re-analysis of the deposited data

Results flagged for a closer look

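The contrast of pool 4 against pool 3 differed between EB and ESC by a test of that difference for 383 genes that were higher in EB and 331 that were lower (limma on per-culture differences, adjusted p under 0.05), and no alternative setting kept a call. Among the 4 highest, Smc1b, a meiotic cohesin subunit, had a difference between the states of 1.51 (log2), but it was at the floor on all 3 ESC pool 4 arrays. Cog7, of the Golgi tethering complex, differed by 1.46, with 1.75 in EB and 0.29 in ESC. Xrcc5, a DNA end-binding protein, differed by 1.37, and Vcp, an ATPase that extracts ubiquitin-marked proteins, by 1.35. In Vcp the 3 EB cultures stood at 1.49, 1.13 and 1.44 and the 3 ESC cultures at 0.072, 0.12 and -0.19.

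At the other end Gm4802 differed by -1.24, Bloc1s4, of a complex for lysosome-related organelles, by -1.21, and Cstb, a cysteine protease inhibitor, by -1.21. Cstb was -1.22 in EB and -0.011 in ESC. Tm9sf2, a membrane protein, differed by -1.20 with another pattern: it stood at 1.44 in ESC and 0.24 in EB. Its probe set, with the suffix _x_at, is of a kind that can bind more than 1 gene. This holds as well for those of Wars, Eif3c, Eif3e, Cdc20, Cpsf3, Wdr6, Pold1, Sf3b2 and Ccn1. Bloc1s4, Aars, Atp5e, Kdm1a, Prmt5, Tcof1 and Bub1b were among the genes with the suffix _s_at. With both kinds left out, 15 lists had a median above 0 in EB pool 4 minus pool 3, against 16 with them. Across these 8 genes the adjusted p lay between 0.0356 and 0.0433. Groups of 3 arrays are too small for the outlier test used here, so no array was tested as one.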

How the results depend on the processing

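The counts of calls depend on the settings. With an offset of 8 in place of 32, 4380 probe sets were called (2219 higher, 2161 lower), and with no filter on low signal 3305 (1727 and 1578). Scale decides the direction split: higher calls fell to 47 on the deposited scale and 2057 with median centring. Leaving out a pair gave 2348 to 5159 calls, with 1191 to 2584 higher and 1157 to 2575 lower; 2307, 3352 and 4636 of the 6914 called probe sets remained called without replicate 1, 2 or 3, and 0 changed sign. With no replicate block 6856 were called, and 6376 of the 6914 remained. Scaling to hybridisation controls, an alternative chosen after seeing the data, gave 4617 higher and 2771 lower. Of 26 lists 16 had a median above 0, against 5 as deposited and 9 with median centring; among the other settings it was 14 to 18. Of the 66 named genes called, 39 were called the same way as deposited, 64 with median centring and 48 with no filter on low signal. The 18 calls lost without the filter included Cog7 and Cby1, the highest and the lowest gene, and Pou5f1 (adjusted p = 0.0536, 0.131 and 0.0863 by limma). Signs turned on the deposited scale for Eif3e (-0.034), Actb (-0.622), Nanog (-0.289) and Sox2 (-0.422), and with median centring for Actb (-0.319) and Sox2 (-0.119). Leaving out replicate 1, 2 or 3 ended the call of 8, 3 and 1 named genes. Pou5f1 missed the threshold without replicate 1 and without replicate 2 (-0.75 and -0.57, adjusted p = 0.0663 and 0.079 by limma).

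For the difference between EB and ESC, 1137 probe sets (637 higher, 500 lower) became 0 on the deposited scale (0 higher, 0 lower), 0 with median centring, 0 with the replicate block for cultures of one number, and 0 when any one EB or ESC culture was left out. At an unadjusted p under 0.05 the main setting held 3487 genes. The comparison by protein length was not run, since no protein table was used here. The causes of these changes were not tested.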

Other observations

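Gene families outside the lists above were grouped by the letters of their symbols, a choice made after their values were seen and given without a test. Over all genes 15.4% were called higher and 15.7% lower. All 10 COMMD genes tested, which encode small adaptor proteins of endosomal sorting, were called lower in pool 4 (median -0.82), as were 9 of 10 Chmp genes of the ESCRT-III membrane-cutting machinery (-0.60) and 11 of 15 Timm genes of mitochondrial protein import (-0.74). Lsm genes, which bind the ends of small RNAs, had 8 of 12 lower (-0.79). Genes with the stem Rab, that of small GTPases of membrane traffic, had 28 of 64 lower and 3 higher (-0.45). A stem can take in other genes, as Cdk takes in Cdk5rap2, so the 64 may not all be GTPases.

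Membrane tethering complexes had unlike counts: of 8 Cog genes 6 were called higher and 0 lower, while of 14 Trappc genes 4 were higher and 8 lower. Subunits of the Integrator complex, which ends transcription of small nuclear RNAs, were called higher in 9 of 15 genes and lower in 1, with a median of 0.78, Ints7 (1.15), Ints3 (0.90) and Ints11 (0.78) among the higher and Ints12 (-0.49) the lower one. These medians and counts are relative to all genes, and the families low after quantile normalization were lower still on the deposited scale. Of 445 long noncoding RNA genes tested 4 were called higher and 46 lower (0.899% and 10.3%). Of 12707 protein-coding genes 2046 and 2031 were (16.1% and 15.98%), so long noncoding RNAs were called less often in both directions. The classes were not matched for signal level. Calls were rarer among dim genes, at 2.44% and 2.50% of the dimmest 3325 against 29.12% and 29.15% of the brightest 3324. The part that level plays here was not tested.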
